A study of Mus musculus with 6 samples.

Results

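The AP-1 family genes described here are 9 genes of bZIP transcription factors: the JUN genes Jun, Junb and Jund, the FOS genes Fos, Fosb, Fosl1 and Fosl2, and the ATF and JDP genes Atf3 and Jdp2. They were taken by gene symbol from the deposited count table, which held all 9 among 24516 genes, and all 9 were among the 13427 genes that passed the filter on low counts. Poly(A) RNA was sequenced in bulk from iMGT-Myh6-eGFP-MEF, a mouse embryonic fibroblast line in which doxycycline switches on Mef2c, Gata4 and Tbx5 (MGT), the factors used to turn fibroblasts into induced cardiomyocytes, and whose green fluorescent reporter is tied to Myh6. The siJunb group (2 libraries) was transfected with an siRNA against Junb, the siH1f0 group (2 libraries) with one against H1f0, the gene of linker histone H1.0, and the siControl group (2 libraries) with a control siRNA. Every library received 1 ug/mL doxycycline the day after transfection, so MGT was induced in the controls too, and an uninduced state was not analysed here. The harvest is labelled day 1 on each sample, but the description of the whole series speaks of day 3 and of sorting cells with GFP. No source used here gives the siRNA sequences or says whether the line is 1 clone.

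AP-1 is a dimer. JUN proteins pair with each other or with FOS or ATF proteins, while FOS proteins need a JUN partner, and the dimers bind short palindromic sites in enhancers and promoters. In fibroblasts AP-1 mediates the response to serum and growth factors and keeps enhancers of fibroblast genes open, and it is known as a barrier to changes of cell identity. JUNB is a weaker activator than JUN and can oppose it, FOSL1 and FOSL2 lack the strong activation domain of FOS and FOSB, and ATF3 and JDP2 can act as repressors at AP-1 and CRE sites.

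Library totals ran from 48690447 to 85979630 counts. The knocked-down genes followed the labels: H1f0 was at 51.6 and 54.4 CPM in siH1f0, against 798 and 742 CPM in siControl. The library siControl 1 stood apart from siControl 2 and from every knockdown library. It held 18760 CPM of the ribosomal RNA precursor Rn45s, against 6286 CPM in siControl 2 and 3040 to 6684 CPM in the knockdown libraries. Its induced factors were all lower, with 354 CPM of Mef2c, 844 CPM of Gata4 and 1858 CPM of Tbx5. In siControl 2 they were at 709, 1411 and 2554 CPM. The knockdown libraries held 714 to 792.5 CPM of Mef2c, 1343 to 1480 CPM of Gata4 and 2389 to 2620 CPM of Tbx5. Both comparisons with siControl include siControl 1, and the part of its lower MGT level in the differences was not tested. Of 15 fibroblast markers, 12 reached 1 CPM in every library (sum 11840 to 13960 CPM), but Thy1 and Lum were each at 0 in 5 of 6 libraries and Postn stayed under 1 CPM. Cardiomyocyte markers summed to 252 to 312 CPM over 16 genes, with Myl3 at 0 and Ryr2, Myl2 and Actn2 under 0.1 CPM. Leukocyte, endothelial and epithelial markers (8 genes each) summed to at most 3.64, 1.36 and 0.665 CPM, with Ptprc, Cd3e, Cldn5, Krt5 and Krt14 at 0 in every library.

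RefSeq promoter sequences on GRCm38.p6 were found for 8 of the 9 genes. The bases before the transcript start are shown for Junb, the siRNA target, for Fosl2, Atf3 and Jdp2, whose RNA passed a test, and for Jun, which holds an AP-1-like site. Jund RNA passed a test too, but its sequence is not shown. They run 5′ to 3′ up to the base before the start, and capitals mark the AP-1 and CRE letters searched, TGANTCA, TGACNTCA and TGACG, on either strand.
Junb, chr8:84978749-84978998, minus strand: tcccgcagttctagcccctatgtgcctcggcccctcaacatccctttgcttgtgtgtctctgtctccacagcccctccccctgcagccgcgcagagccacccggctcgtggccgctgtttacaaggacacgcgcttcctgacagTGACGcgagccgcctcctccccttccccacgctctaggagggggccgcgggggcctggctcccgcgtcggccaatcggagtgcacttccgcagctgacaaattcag
Jun, chr4:95052223-95052472, minus strand: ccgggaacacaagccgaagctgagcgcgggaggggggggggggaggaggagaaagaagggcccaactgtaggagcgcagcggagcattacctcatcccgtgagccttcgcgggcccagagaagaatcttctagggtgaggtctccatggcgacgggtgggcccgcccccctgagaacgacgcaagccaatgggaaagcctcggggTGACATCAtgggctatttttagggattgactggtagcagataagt
Fosl2, chr5:32136222-32136471, plus strand: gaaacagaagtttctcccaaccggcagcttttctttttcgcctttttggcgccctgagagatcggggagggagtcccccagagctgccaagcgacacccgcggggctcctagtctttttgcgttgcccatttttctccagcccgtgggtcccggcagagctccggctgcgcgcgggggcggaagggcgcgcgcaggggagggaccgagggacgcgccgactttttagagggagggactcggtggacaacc
Atf3, chr1:191183334-191183583, minus strand: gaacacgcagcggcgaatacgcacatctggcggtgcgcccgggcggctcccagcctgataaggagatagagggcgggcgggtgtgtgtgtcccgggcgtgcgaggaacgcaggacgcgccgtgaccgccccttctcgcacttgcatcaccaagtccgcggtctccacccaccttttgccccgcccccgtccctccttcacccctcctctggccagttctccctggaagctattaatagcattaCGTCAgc
Jdp2 second start, chr12:85599166-85599415, plus strand: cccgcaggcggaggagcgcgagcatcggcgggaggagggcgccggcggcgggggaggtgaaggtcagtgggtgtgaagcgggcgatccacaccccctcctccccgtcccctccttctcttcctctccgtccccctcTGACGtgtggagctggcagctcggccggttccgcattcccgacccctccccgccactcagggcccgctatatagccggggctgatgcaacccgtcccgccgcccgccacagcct

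Windows reaching from 250 bases before to 50 bases after a start were searched on both strands, 10 windows in all since Jdp2 has 3 starts. The classical AP-1 site TGANTCA was found in 0 of the 10, while 7.81% of 32851 mouse promoter windows of the same length hold it. The Jun window held TGACATCA at -45, a match to TGACNTCA, which 8.83% of all windows hold; the human JUN promoter is known for a site of this form bound by JUN and ATF2. The CRE core TGACG, held by 20.8% of all windows and overlapping TGACNTCA where the free base is G, was found at -106 in Junb, at -129 and -66 in Fos, at -60 in Fosb, at -7 on the other strand in Atf3 and at -114 before the second Jdp2 start. The windows of Fosl2 and Jund held none of these letters. Those 2 windows lie 671 and 1210 bases from the nearest protein-coding start in the GENCODE annotation, against 0, 30 and 7 bases for Jun, Junb and Atf3, so another start may lie outside them. The full CRE TGACGTCA (1.79% of all windows) and the serum-response CArG box (1.63%) were in none of the members' windows. Sequence more than 250 bases before a start was not searched, for Fos or any other member, so sites there would be missed. CCAAT, held by 37.4% of all windows, was in those of Jun, Junb and Atf3, and the GC box GGGCGG (35.7%) in those of Jun, Fos, Fosb, Fosl2, Atf3 and Jdp2.

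**Figure D1:**
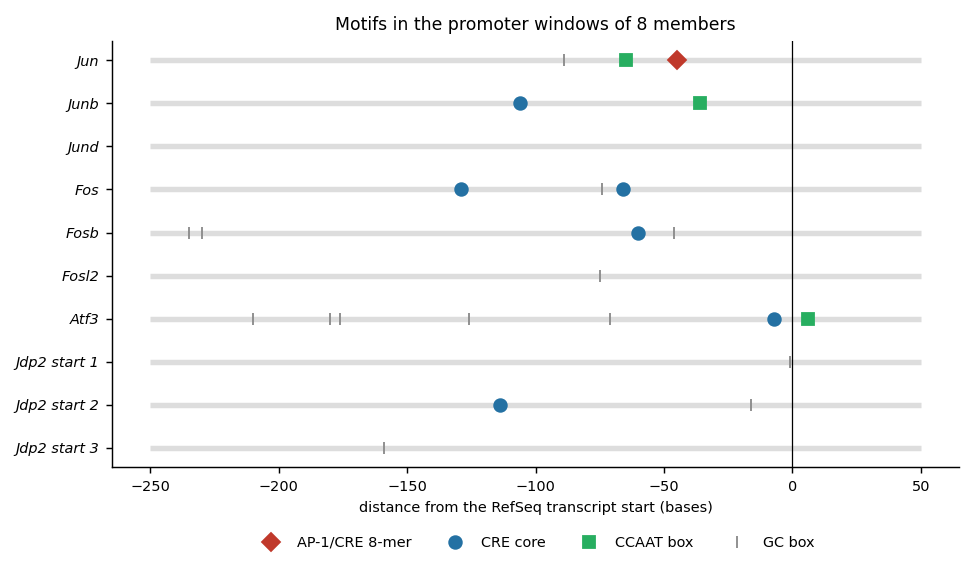
Positions of AP-1/CRE 8-mers, CRE cores, CCAAT boxes and GC boxes in the RefSeq promoter windows of 8 members; the x axis is the distance in bases from the transcript start and each grey line is 1 window. Jun alone carries the 8-mer, at -45, and the Jund window carries none of the motifs drawn.

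The members spanned a wide range of levels, with Jdp2 and Jund on top and Fosb and Fosl1 at the bottom in each group. Levels of different genes were compared as CPM per kb, counts per 1000000 divided by the gene length in the deposited table. In siControl, Jdp2 averaged 73.4 ± 1.38 and Jund 69.7 ± 7.51 CPM per kb (SD, n = 2 each), and their libraries overlapped. Fosl2 at 36.2 ± 1.98 and Atf3 at 34.4 ± 1.73 CPM per kb came next and overlapped as well (SD, n = 2 each). They were followed by Junb at 20.3 ± 1.31, Jun at 17.4 ± 0.498 and Fos at 3.53 ± 0.00328 CPM per kb, which did not overlap with one another (SD, n = 2 each). Fosb at 0.334 ± 0.0401 and Fosl1 at 0.204 ± 0.00179 CPM per kb were the lowest (SD, n = 2 each). Jdp2 stood at the 92.1 percentile of the tested genes and Fosl1 at the 8.16 percentile in siControl.

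In the other groups some neighbours in that order changed place. In siJunb the order was Jdp2 at 66.4 ± 1.65, Jund at 50.8 ± 2.51, Fosl2 at 42.4 ± 1.57, Atf3 at 29.7 ± 0.303, Jun at 18.05 ± 0.170 and Junb at 5.32 ± 0.684 CPM per kb, with no overlap between neighbours (SD, n = 2 each). In siH1f0 Fosl2 at 26.5 ± 0.0747 CPM per kb ranked below Atf3 at 35.3 ± 0.970 CPM per kb, and Jun at 18.03 ± 0.444 CPM per kb ranked above Junb at 16.6 ± 0.450 CPM per kb (SD, n = 2 each). Junb was thus above Jun in both siControl libraries and below it in all 4 knockdown libraries, by level per length. These orders are descriptions, with no test between genes.

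**Figure D2:**
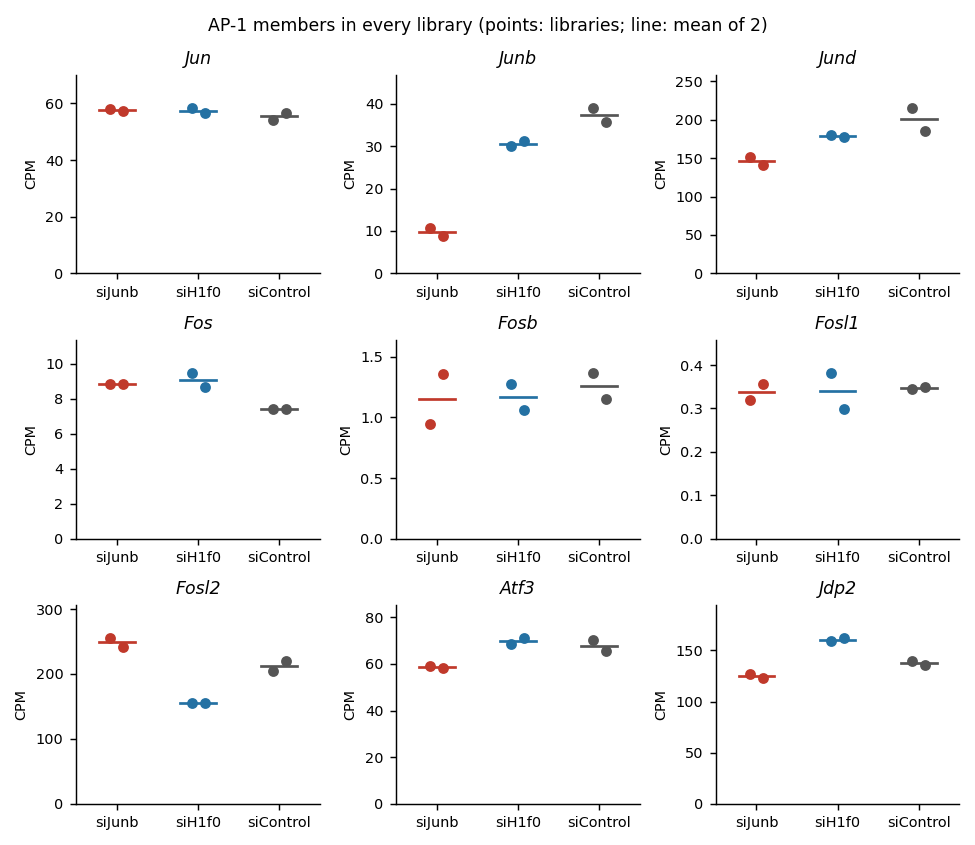
Level of each AP-1 member in CPM (y axis from 0, each panel on its own scale) in the 2 libraries of siJunb, siH1f0 and siControl; points are libraries and lines are means of 2. Junb is lowest in siJunb at 8.89 and 10.7 CPM, Fosl2 is highest in siJunb and lowest in siH1f0, and Jun is nearly level across the 6 libraries.

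The comparison of siJunb with siControl asks how the rest of the family stood when Junb was lowered. In siJunb, 3 of the 9 members were lower (Junb, Jund and Atf3), 1 was higher (Fosl2) and 5 did not pass the test. Junb is the target of the siRNA, so its fall belongs to the design. It is counted in the 3 and in the median of the members. Across all tested genes 7.82% were called lower and 8.63% higher in this comparison. The median log2 fold change was -0.14 over the 9 members and 0.00243 over all tested genes. A call is an adjusted p under 0.05 by the edgeR quasi-likelihood test over all genes (Benjamini-Hochberg), and fold changes are log2 values with their SE. The SE is the size of the fold change divided by the square root of its F statistic. The 95% intervals use that SE and are not adjusted for the number of genes. An interval can thus exclude no change where the adjusted p misses 0.05. With 2 libraries a group, a two-sided exact permutation test has a smallest p of 0.33, so each call depends on the spread that edgeR estimates jointly over genes. In bulk RNA, fewer cells that express a gene and less of its RNA per cell cannot be told apart.

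Junb, the target of the siRNA, was at 10.7 and 8.89 CPM in siJunb, against 39.1 and 35.7 CPM in siControl. Both siJunb libraries were far below both siControl libraries. Its log2 fold change was -1.93 ± 0.09 (adjusted p = 1.6e-05), so that 0.263 of the siControl level remained. The call held under all 14 alternative settings, including each library left out in turn (-2.07 to -1.81).

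Jund, the most broadly expressed JUN gene and one often linked to slower growth, was at 151 and 141 CPM in siJunb, against 216 and 185 CPM in siControl. The groups did not overlap, and siControl 1 was the highest of all libraries. Jund fell by 0.46 ± 0.07 on the log2 scale (adjusted p = 0.00501). Without siControl 1 the difference was -0.34, and without siJunb 2 it was -0.41 and missed the test. Jund and Junb are single-exon genes on the same chromosome, with table lengths equal to their annotated spans of 2878 and 1840 bases, and the siRNA was not compared with their sequences.

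Jun, the strong activator of the JUN genes, was at 57.9 and 57.1 CPM in siJunb, against 54.3 and 56.5 CPM in siControl. The values lay close together, with siJunb above siControl by a narrow margin. Its log2 fold change was 0.05 (95% interval -0.07 to 0.17, adjusted p = 0.524), and it passed the test under none of the 14 alternatives.

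Fosl2, the gene of FRA-2 and by far the most abundant FOS gene here, was at 255 and 242 CPM in siJunb, against 204 and 220.1 CPM in siControl. Both siJunb libraries were above both siControl libraries. It rose by 0.23 ± 0.05 on the log2 scale (adjusted p = 0.0222). The call was lost in 5 of 14 alternatives (adjusted p up to 0.213), namely the fit of only the 4 libraries compared and the fits that omit 1 siJunb or 1 siH1f0 library. The difference was 0.18 when siControl 1 was omitted.

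Fos, the founding FOS gene and a classical serum-response gene, was at 8.85 and 8.81 CPM in siJunb, against 7.40 and 7.39 CPM in siControl. The siJunb libraries were both higher, but the log2 difference of 0.26 did not pass the test (95% interval 0.05 to 0.46, adjusted p = 0.0909). Fosb, which like Fos is induced by serum, had 59 and 65 counts in siJunb, against 119 and 76 counts in siControl, or 0.943 and 1.36 CPM against 1.37 and 1.15 CPM. Its groups overlapped and the 95% interval of the log2 difference, -0.72 to 0.41, was wide. Fosl1, the gene of FRA-1, had 20 and 17 counts in siJunb, against 30 and 23 counts in siControl. That is 0.320 and 0.356 CPM in siJunb (exact Poisson 95% limits 0.195 to 0.494 and 0.207 to 0.570 CPM, for counting error only), against 0.345 and 0.349 CPM in siControl. The groups overlapped, and the 95% interval of the log2 difference ran from -0.87 to 0.78. The annotated span of Fosl1 overlaps Ccdc85b, which reached 12.4 CPM, and no source used here gives the strand setting of the counting, so the Fosl1 values are uncertain.

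Atf3, a stress-induced gene whose protein represses many of its targets, was at 59.2 and 58.4 CPM in siJunb, against 70.3 and 65.5 CPM in siControl. Both siJunb libraries were the lower ones. Atf3 fell by 0.21 ± 0.06 on the log2 scale (adjusted p = 0.0386), and by 0.15 when siControl 1 was omitted. The call was lost in 6 of 14 alternatives (adjusted p up to 0.245), among them the fit of only the 4 libraries compared and each fit that omits 1 siJunb or 1 siH1f0 library. Jdp2, a partner of JUN that recruits repressors, was at 127 and 123 CPM in siJunb, against 139.9 and 136 CPM in siControl. Both siJunb libraries were below both siControl libraries, but the log2 difference of -0.14 missed the test (95% interval -0.25 to -0.04, adjusted p = 0.0729). It passed with total counts as the only scaling (-0.18, adjusted p = 0.0373) and with a filter at a mean of 5 CPM. It also passed without either siControl library, but the spread then comes from the knockdown pairs alone, which lay closer together than the siControl pair.

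**Figure D3:**
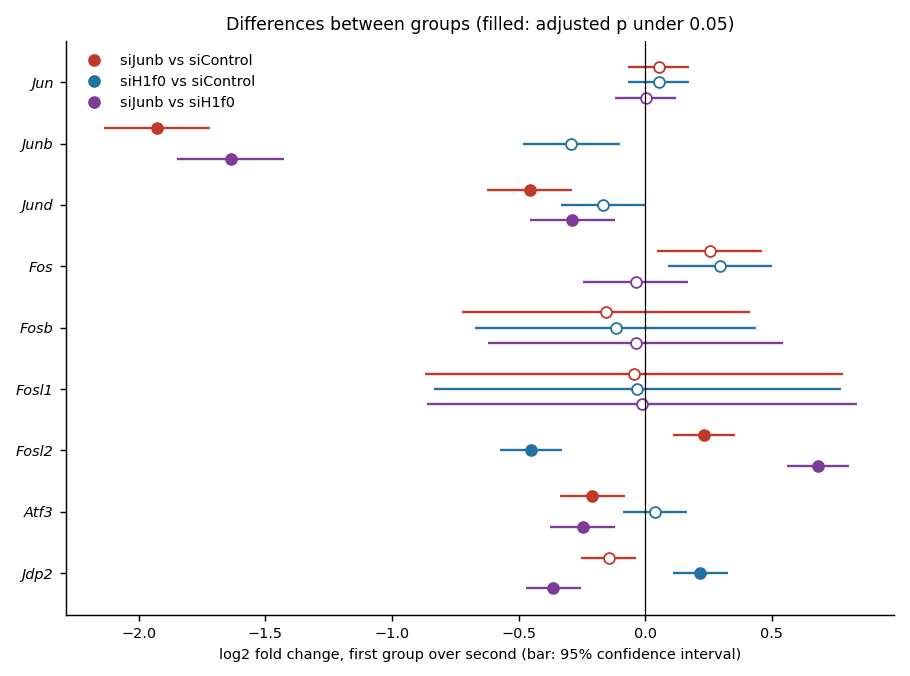
Log2 fold change of each member (points) with its 95% confidence interval (bars) for siJunb over siControl, siH1f0 over siControl and siJunb over siH1f0; filled points passed the test at an adjusted p under 0.05. Fosl2 lies right of 0 for siJunb over siControl (0.23) and left of 0 for siH1f0 over siControl (-0.45), and the bars of Fosb and Fosl1 are the longest.

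The comparison of siH1f0 with siControl asks whether lowering a linker histone moved the same family. In siH1f0, 1 of the 9 members was higher (Jdp2), 1 was lower (Fosl2) and 7 did not pass the test. Across all tested genes 2.27% were called higher and 4.27% lower. The median log2 fold change was -0.03 over the members and 0.00340 over all tested genes. The siControl libraries of this comparison are the same as those of the comparison with siJunb. A shift in the same direction in both knockdowns, here and in the gene lists below, is thus not independent.

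Fosl2 was at 154.8 and 155 CPM in siH1f0, against 204 and 220.1 CPM in siControl. The 2 siH1f0 libraries were nearly equal and both were lower. Fosl2 fell by 0.45 ± 0.05 on the log2 scale (adjusted p = 0.00236), or to 0.732 of the siControl level. The call held in 12 of 14 alternatives and was narrowly missed without either siH1f0 library (adjusted p up to 0.0586). Without siControl 1 the difference was -0.51.

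Jdp2 was at 158.9 and 162 CPM in siH1f0, against 139.9 and 136 CPM in siControl. Both siH1f0 libraries were higher than both siControl libraries. Jdp2 rose by 0.22 ± 0.05 on the log2 scale (adjusted p = 0.0326). The call was lost in 6 of 14 alternatives (adjusted p up to 0.287), among them the fit of only the 4 libraries compared and each fit that omits 1 siJunb or 1 siH1f0 library. Without siControl 1 the difference was 0.24.

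Junb itself was at 29.97 and 31.1 CPM in siH1f0, against 39.1 and 35.7 CPM in siControl. Both siH1f0 libraries were lower, with a log2 difference of -0.29 that did not pass (95% interval -0.48 to -0.10, adjusted p = 0.0778). It passed with no filter on low counts and without either siControl library. A fit without a siControl library takes its spread from the knockdown pairs alone. Those lay closer together than the siControl pair, so a pass there is no further support. Jund was at 179.6 and 177 CPM in siH1f0, against 216 and 185 CPM in siControl, a log2 difference of -0.17 (95% interval -0.33 to -0.0028, adjusted p = 0.213). Without siControl 1 the difference was -0.05, and without siControl 2 it was -0.28. With all libraries it passed when no filter on low counts was used. Atf3, at 68.4 and 71.1 CPM in siH1f0 against 70.3 and 65.5 CPM in siControl, overlapped between the groups. Fos was at 9.47 and 8.68 CPM in siH1f0, against 7.40 and 7.39 CPM in siControl. Its log2 difference of 0.29 did not pass (95% interval 0.09 to 0.50, adjusted p = 0.0932), though it passed without siControl 2, with the same limit. Jun was at 58.5 and 56.5 CPM in siH1f0, against 54.3 and 56.5 CPM in siControl, with a 95% interval of the log2 difference from -0.07 to 0.17. Fosb at 1.28 and 1.06 CPM and Fosl1 at 0.382 and 0.299 CPM in siH1f0 overlapped with siControl.

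The comparison of siJunb with siH1f0 sets the 2 knockdowns against each other without the control libraries in the contrast, although those still inform the shared spread. In siJunb, 1 of 9 members was higher than in siH1f0 (Fosl2) and 4 were lower (Junb, Jdp2, Jund and Atf3). The 4 and the median of the members include Junb, the siRNA target. Across all tested genes 13.8% were called higher and 12.2% lower. The median log2 fold change was -0.04 over the members and -0.000715 over all tested genes.

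Fosl2 differed the most after Junb, at 255 and 242 CPM in siJunb against 154.8 and 155 CPM in siH1f0. Its log2 fold change was 0.68 ± 0.05 (adjusted p = 8.42e-05), a level 1.60 times as high in siJunb. Jdp2 showed the opposite order, at 127 and 123 CPM in siJunb against 158.9 and 162 CPM in siH1f0, with a log2 fold change of -0.36 ± 0.05 (adjusted p = 0.00105). The calls of Junb (-1.64 ± 0.09), Fosl2 and Jdp2 held in all 14 alternatives, with ranges of 0.63 to 0.72 for Fosl2 and -0.41 to -0.34 for Jdp2. The libraries of siJunb and siH1f0 did not overlap for these 3 genes, nor for Jund and Atf3. With 2 libraries a group, such a split has a probability of 0.33 without a difference, and its share over all tested genes was not counted.

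Jund (-0.29 ± 0.07, adjusted p = 0.0210) and Atf3 (-0.25 ± 0.06, adjusted p = 0.0134) were lower in siJunb than in siH1f0, and each lost its call when any siJunb or siH1f0 library was left out (adjusted p up to 0.181 for Jund and 0.134 for Atf3). Jun differed by 0.00147 with a 95% interval from -0.12 to 0.12, and its sign changed with the scaling. Fos, at 8.85 and 8.81 CPM in siJunb against 9.47 and 8.68 CPM in siH1f0, overlapped (log2 difference -0.04, 95% interval -0.25 to 0.17). Fosb and Fosl1 overlapped too, with intervals from -0.62 to 0.54 and from -0.86 to 0.84.

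**Figure D4:**
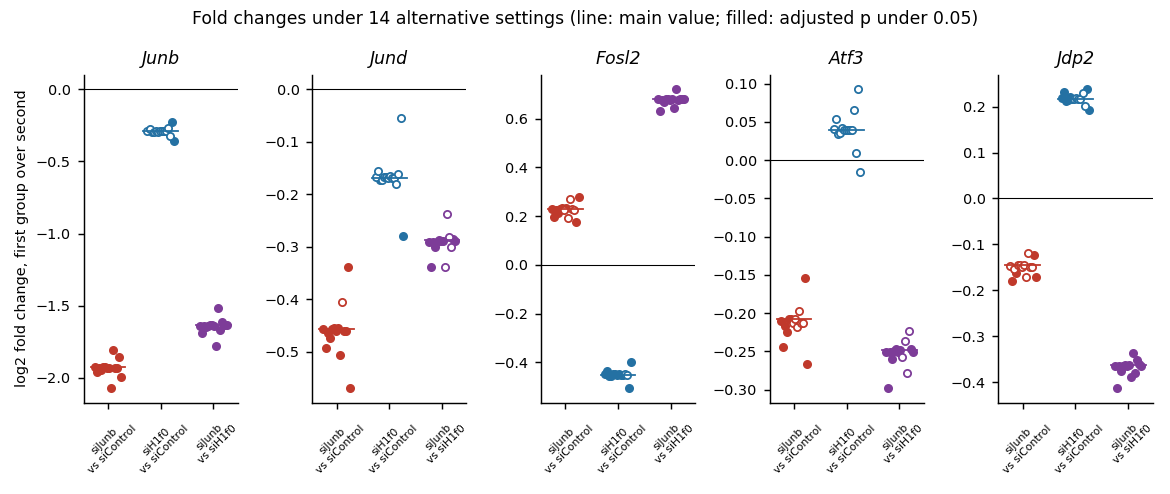
Log2 fold change (y axis, each panel on its own scale) of Junb, Jund, Fosl2, Atf3 and Jdp2 in each comparison under 14 alternative settings (points, filled where the adjusted p was under 0.05), with the value reported as a line. No point crosses 0 for siJunb over siH1f0, and Atf3 crosses 0 for siH1f0 over siControl (-0.02 to 0.09).

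The make-up of the family was also described by summing CPM per kb over the JUN genes and over the FOS genes. The JUN sum, in CPM per kb, was 76.5 and 71.8 in siJunb and 97.0 and 96.2 in siH1f0, against 113 and 101.5 in siControl. Both siJunb libraries were the lowest, and the sum includes Junb, the target of their siRNA. Junb made up 7.58% and 6.74% of the JUN sum in siJunb, 16.8% and 17.6% in siH1f0, and 18.75% and 19.1% in siControl. Jund was the largest share in every library, from 63.4% to 68.7%, and Jun took 23.7% and 24.98% in siJunb, 18.9% and 18.4% in siH1f0, and 15.04% and 17.5% in siControl. The higher share of Jun in siJunb stood beside a Jun level in CPM that did not pass the test.

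The FOS sum ran the other way between the knockdowns, at 48.2 and 46.1 CPM per kb in siJunb, 31.5 and 31.1 CPM per kb in siH1f0, and 38.9 and 41.6 CPM per kb in siControl. Fosl2 made up 83.9% to 90.3% of it in every library. Fos held 8.77% and 9.13% of the FOS sum in siJunb, 14.4% and 13.3% in siH1f0, and 9.10% and 8.49% in siControl. The ratio of the FOS sum to the JUN sum was 0.630 and 0.642 in siJunb, 0.325 and 0.323 in siH1f0, and 0.343 and 0.410 in siControl, with siJunb above every other library. Atf3 and Jdp2 together gave 97.5 and 94.8 CPM per kb in siJunb, 119 and 122 CPM per kb in siH1f0, and 109.9 and 105.5 CPM per kb in siControl. The ratio, like the JUN sum, includes the siRNA target Junb. These sums are RNA levels and give no amount of protein or of dimers.

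**Figure D5:**
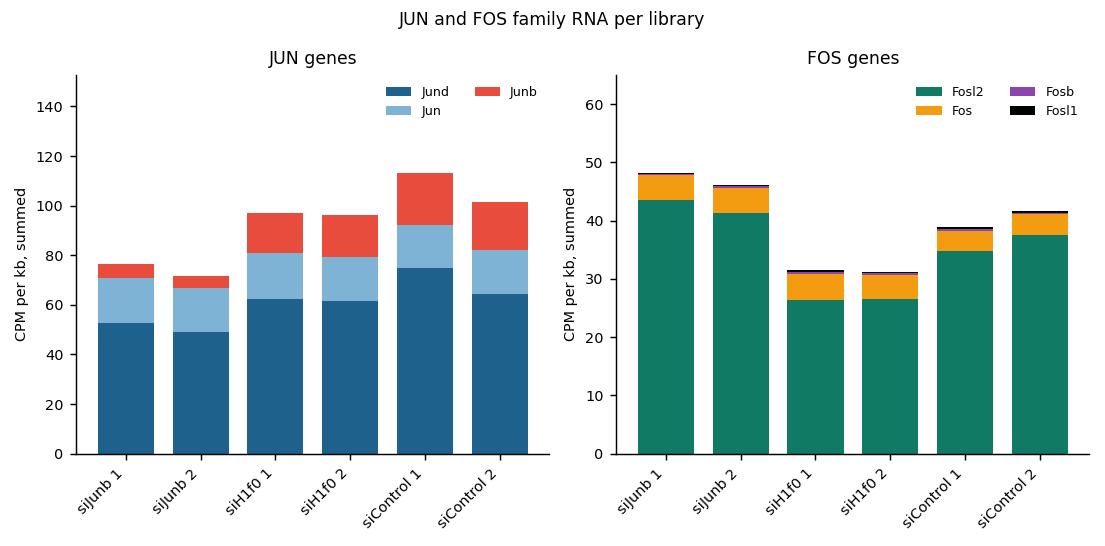
Stacked CPM per kb of the JUN genes (left) and the FOS genes (right) in each of the 6 libraries. The Junb segment shrinks to 6.74% to 7.58% of the JUN sum in siJunb, and the FOS sum is highest in siJunb (46.1 to 48.2) and lowest in siH1f0 (31.1 to 31.5).

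Across the 6 libraries, log2 CPM of Fosl2 and Jdp2 ran in opposite directions (Pearson r = -0.980, n = 6), and Junb ran with Jund (r = 0.934) and with Atf3 (r = 0.927). Fosl2 against Atf3 gave r = -0.828 and Jun with Fos r = 0.819. These points share 3 groups of 2 libraries, so they describe the group pattern and carry no p. Fos and Jdp2 are neighbours on chromosome 12, 121 kb apart with 0 protein-coding genes between them, and their correlation was 0.208. Among 9909 genes with a mean of at least 5 CPM, the pattern most like Junb was that of Cdr2l (r = 0.997), Marcks (r = 0.997), Ezh2 (r = 0.996) and Dhps (r = 0.995) over 6 libraries. Most like Fosl2 were Nfkbiz (r = 0.999), at 97.3 CPM in siJunb, 65.6 CPM in siH1f0 and 85.03 CPM in siControl, and Snx25 (r = 0.998). Most like Jdp2 were Pcx and Cenpn, like Jund Gnl1 and Dus2, like Atf3 Klhdc4 and Clcn2, like Fos Hopx and Ap1b1, and like Jun Rdh11 and Fcho2, each with r from 0.989 to 0.999. For Fosb (Htra2 and Dnttip2) and Fosl1 (Acad10 and Hid1) the best r was 0.976 and 0.970, on few counts. These values are the highest among 9909 genes and are high by that selection.

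The partners and regulators around the family were read from gene lists. Of 24 tested genes of related bZIP proteins, 5 were higher and 4 lower in siJunb than in siControl, and 4 were lower in siH1f0 than in siControl (edgeR). Over all tested genes, 8.63% were called higher and 7.82% lower in siJunb, and 2.27% higher and 4.27% lower in siH1f0, and the list counts that follow stand beside these shares. Between the knockdowns 7 of the bZIP genes were higher and 4 lower in siJunb than in siH1f0, beside 13.8% and 12.2% of all tested genes. The 5 higher in siJunb became 1 when a siJunb library was omitted and 8 without siControl 2, and the 4 lower became 1 or 2 and 9. The 4 lower in siH1f0 became 2 when a siH1f0 library was omitted, and the 4 lower between the knockdowns became 1 or 2 when any knockdown library was. Against siControl their median log2 fold changes were -0.03 and -0.03, against 0.00243 and 0.00340 over all tested genes. Cebpd, a C/EBP factor of the acute response, was at 141 ± 4.15 CPM in siJunb and 52.9 ± 3.11 CPM in siH1f0, against 80.9 ± 4.58 CPM in siControl (SD, n = 2 each), with log2 fold changes of 0.80 and -0.61 against siControl. Like Fosl2 it was therefore highest in siJunb and lowest in siH1f0. Atf1, a CREB-type factor, was lower in both knockdowns (-0.47 in siJunb and -0.68 in siH1f0). The calls of Cebpd and Atf1 against siControl passed under all 14 alternatives. Mafk, a small MAF protein gene, rose by 0.31 in siJunb, a call lost when either siJunb library was omitted, and Maff, another, fell by 0.27 in siH1f0, a call lost when any knockdown library was omitted.

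Of 29 tested MAP kinase pathway genes, whose kinases phosphorylate JUN, FOS and ATF proteins, 3 were higher and 4 lower in siJunb and 1 was higher and 4 lower in siH1f0, each against siControl. In siJunb against siH1f0, 5 were higher and 6 lower, beside 13.8% and 12.2% of all tested genes. These counts changed when single libraries were omitted. When either siJunb library was omitted, no gene of the list passed in siJunb against siControl (edgeR), while 7 or 8 were higher and 5 or 7 lower when a siControl library was. None passed in siH1f0 without either siH1f0 library, and between the knockdowns 2 were higher and 1 or 2 lower without any of their libraries. Mapk8, the gene of JNK1, was at 72.4 ± 1.64 CPM in siJunb and 72.8 ± 1.33 CPM in siH1f0, against 85.4 ± 3.42 CPM in siControl (SD, n = 2 each), log2 fold changes of -0.24 and -0.23. Map3k3, the gene of a kinase further up the cascade, was higher in both knockdowns. It was at 131.9 ± 4.82 CPM in siJunb and 130.6 ± 0.799 CPM in siH1f0, against 103.3 ± 10.3 CPM in siControl (SD, n = 2 each). The log2 fold changes were 0.35 and 0.34. For Mapk8 and Map3k3 the fold changes of both knockdowns use the same siControl libraries, so they are not independent. Map2k2 (-0.49) and Map2k3 (-0.42), the genes of MEK2 and of a p38-activating kinase, were lower in siH1f0. Each of these calls was lost when a library of the knockdown concerned was omitted. Of 18 tested genes for turnover and cofactors of AP-1 proteins, Ddb1 passed as higher in siJunb (0.17), and Trib1 (-0.42) and Trib2 (-0.59) as lower in siH1f0. All 3 calls were lost with only the 4 libraries compared and when any siJunb or siH1f0 library was omitted, and that of Ddb1 also with total counts as the only scaling. The other members of that list did not pass in either comparison, but 6 and 10 were higher in siJunb without siControl 1 and siControl 2.

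Of 29 tested AP-1 target genes, a list chosen with earlier results of these data known, 7 were higher and 5 lower in siJunb than in siControl, and 1 was higher and 7 lower in siH1f0 than in siControl. In siJunb against siH1f0, 14 were higher and 2 lower, beside 13.8% and 12.2% of all tested genes. The median log2 fold change of the list was 0.14 in siJunb, -0.06 in siH1f0 and 0.20 between the knockdowns, each against a median within 0.00340 of 0 over all tested genes. The count of 14 was 6 or 7 when any siJunb or siH1f0 library was left out and 9 with total counts as the only scaling. The count of 7 higher in siJunb was 3 without either siJunb library and 11 or 12 without either siControl library, and the count of 7 lower in siH1f0 was 1 or 2 without either siH1f0 library and 11 without either siControl library.

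Ccnd1, the gene of cyclin D1, was at 19.2 ± 0.233 CPM in siJunb and 6.83 ± 0.308 CPM in siH1f0, against 9.03 ± 0.816 CPM in siControl (SD, n = 2 each), with log2 fold changes of 1.09 and -0.41. Hmga2, a chromatin protein gene, showed the same order with 0.89 and -0.32, and the cytokine gene Lif with 0.37 and -0.41. The siJunb calls of Ccnd1 and Hmga2 passed under all 14 alternatives, whereas their siH1f0 calls and both calls of Lif were lost when a library of that knockdown was omitted. Gja1, a connexin gene of gap junctions, averaged 113.5 ± 3.64 CPM with siJunb against 38.2 ± 1.09 CPM with siH1f0 (SD, n = 2 each), and fell by 1.43 in siH1f0 against siControl. Hbegf, a growth factor gene, was lower in both knockdowns (-0.64 and -0.49). Dusp1, a MAP kinase phosphatase gene named after its values were seen, went the other way, lower in siJunb (-0.47) and higher in siH1f0 (0.25), the second a call lost when any knockdown library was omitted.

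Several AP-1 members are also immediate early genes, switched on by serum, stress or handling of cells, so genes of that class outside AP-1 were read beside them. Of 29 tested, 9 were higher and 2 lower in siJunb and 1 was higher and 7 lower in siH1f0, each against siControl. Between the knockdowns, 14 were higher and 3 lower in siJunb than in siH1f0, beside 13.8% and 12.2% of all tested genes. Without single siJunb or siH1f0 libraries that count of 14 was 6 to 9, and the 3 became 0 or 1. The 9 became 4 and 3 without siJunb 1 and siJunb 2, and 6 with only the 4 libraries compared, and the 2 became 1 without either siJunb library and 4 without siControl 2. The 7 lower in siH1f0 became 2 without either siH1f0 library and 10 and 12 without siControl 1 and siControl 2. Nr4a3 (1.01), Nr4a1 (0.55) and Btg2 (0.37) rose in siJunb, Rgs2 fell in both knockdowns (-0.68 in siJunb and -0.92 in siH1f0) and Myc fell in siH1f0 (-0.56). Of these calls, that of Btg2 was lost without siJunb 2 (adjusted p = 0.0571), and the others passed under all 14 alternatives. The list summed to 2252 and 2237 CPM in the siJunb libraries and to 2016 and 2014 CPM in those of siH1f0, against 2159 and 2114 CPM in siControl. Heat shock genes, another sign of handling, summed to 4801 and 4901 CPM in the siJunb libraries and to 4577 and 4613 CPM in those of siH1f0, against 4711 and 4556 CPM in siControl, and Hspa1a stayed under 1 CPM in every library. Of the 15 tested, 2 were higher (Dnaja1 and Hspd1) and 1 lower (Hsph1) in siJunb than in siControl. None of the 3 passed without either siJunb library, Hspd1 also missed with total counts as the only scaling and with only the 4 libraries compared, and 5 genes were higher and 3 lower without siControl 1. The part of cell handling in the members' differences was not tested.

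Markers of cell identity were read beside the AP-1 genes. Of 11 tested cardiomyocyte markers, 2 were higher and 4 lower in siJunb than in siControl. The lower ones were led by Actc1 at 3.90 ± 0.163 CPM against 20.9 ± 1.78 CPM and Myl7 at 4.82 ± 0.0987 CPM against 14.9 ± 1.89 CPM (SD, n = 2 each). Nppb went the other way, at 2.23 ± 0.435 CPM against 1.09 ± 0.0196 CPM (SD, n = 2 each), a call lost when either siJunb library was omitted. In siH1f0 only Tnni3 passed, as higher. The marker sum was 252 and 253 CPM in the siJunb libraries and 286 and 297 CPM in those of siH1f0, against 312 and 269 CPM in siControl. Of 13 tested fibroblast markers, 3 were higher in each knockdown than in siControl, Dcn in both (1.68 in siJunb and 0.65 in siH1f0). The median log2 fold change of that list was 0.07 in siJunb and -0.04 in siH1f0. The 3 became 1 in siJunb when any knockdown library was omitted, and no fibroblast marker passed as higher in siH1f0 without either siH1f0 library, nor did Tnni3. The siJunb calls of Actc1, Myl7 and Dcn passed under all 14 alternatives. The part of these shifts in the AP-1 differences was not tested.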

How the data were processed

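RNA was measured by poly(A) RNA-seq in 6 libraries, 2 per group, grouped by the sample labels. The authors deposited 1 table of raw read counts for gene symbols, without normalisation, and with a gene length column that was used for CPM per kb. HISAT2, Subread, featureCounts and mm10 are named per the submitters' processing notes. No source used here gives the annotation release, the strand setting or the handling of multi-mapping reads. Coordinates and promoters are from RefSeq GRCm38.p6 tables, in which 23591 of 24516 symbols were found.

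The counts were fitted with edgeR 4.0.16 (R 4.3.3): TMM factors (0.979 to 1.02), filterByExpr, and the quasi-likelihood F test over the 6 libraries, with a term for group alone (3 residual degrees of freedom). P-values were Benjamini-Hochberg adjusted over all tested genes. CPM are counts per 1000000 of the TMM-scaled library size. Median counts per tested gene were 1484 to 2682, so counting error is small except for Fosb and Fosl1, whose exact Poisson limits (95%) cover counting error only. The fit was checked on simulated counts with genes changed by set folds. Chi-square per degree of freedom between the libraries of a group was 3.82 for siJunb, 3.86 for siH1f0 and 74.7 for siControl, so no pair was counted as 1 library. The labels call the replicates biological, and nothing says that they came from separate days or batches.

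All members are named. In addition, up to 4 called genes per list with the smallest adjusted p could be named, plus the genes most like a member over 6 libraries. The members and lists were chosen with earlier results of these data known. Alternatives were DESeq2 1.42.0, limma-voom (limma 3.58.1), RLE factors, scaling by library totals, no filter on counts, a filter at a mean of 5 CPM, only the 4 libraries compared, the replicate block and each library left out.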

Additional observations from a re-analysis of the deposited data

How the results depend on the processing

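The 14 alternatives per comparison kept the direction of every called member. The number of members higher in siJunb than in siControl was 0 with only the 4 libraries compared, and 0 to 1 with single libraries left out. The number lower was 1 to 4 with single libraries left out. For siH1f0 against siControl the number higher was 0 with only the 4 libraries compared and 0 with the replicate block, and 0 to 2 with single libraries left out. The number lower was 3 with no count filter and 0 to 3 with single libraries left out. For siJunb against siH1f0 the number lower was 2 to 4 and the number higher 1 with single libraries left out. The replicate block made Atf3 miss the test in siJunb against siControl (adjusted p = 0.0691) and Jdp2 in siH1f0 (adjusted p = 0.0693), and left 550 genes called for siH1f0 against siControl. Differences between same-numbered libraries correlated at 0.0536, -0.0257 and 0.0589, so the replicate numbers were not taken as pairs.

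Jun in siJunb against siH1f0 changed sign with RLE factors (-0.00136), total counts (-0.0485), no filter (-0.00188), a mean of 5 CPM (-0.0112), DESeq2 (-0.000747) and only the 4 libraries (-0.00146), and ran from -0.0270 to 0.0241 with single libraries left out. Fosl1 there was 0.000110 with limma-voom and -0.187 to 0.164 with libraries left out. With single libraries left out, Fosb (-0.423 to 0.104) and Fosl1 (-0.116 to 0.0367) in siJunb against siControl, Fosb (-0.254 to 0.0176), Fosl1 (-0.213 to 0.138) and Atf3 (-0.0157 to 0.0926) in siH1f0 against siControl, and Fos (-0.104 to 0.0226) and Fosb (-0.308 to 0.219) in siJunb against siH1f0 also changed sign. By counts instead of CPM per kb, Junb was 4.58%, 11.5% and 12.75% of JUN counts in siJunb, siH1f0 and siControl. With single libraries left out, the Junb share ran from 6.74% to 7.58%, 16.8% to 17.6% and 18.75% to 19.1%.

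Genes called over the table numbered 2209, 879 and 3484 (siJunb and siH1f0 against siControl, then siJunb against siH1f0). They numbered 352 to 5521, 116 to 4932 and 1304 to 6435 with libraries left out, and 1094 to 3267, 325 to 1921 and 2919 to 6416 under the other alternatives. A group left with 1 library is assumed to vary like the others. Without a knockdown library the siControl pair makes up more of the shared spread, so a call can be lost with a nearly unchanged fold change. Fosl2 in siJunb against siControl was 0.231 with all libraries and 0.227 without siH1f0 1. Without a siControl library the spread comes from the knockdown pairs alone. Their chi-square per degree of freedom was 3.82 and 3.86, against 74.7 for siControl, so the calls gained there are no further support. The value of 74.7 is weighted towards abundant genes such as Rn45s, at 18760 and 6286 CPM in siControl 1 and siControl 2. Of 924 recomputed list counts, 253 moved by more than 1.5 times. Fosb and Fosl1 have no value with the filter at a mean of 5 CPM, and DESeq2 gave Fosl1 no adjusted p. With 17 to 30 counts a library, a difference in Fosl1 within its interval was not detectable at this depth.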
